A study of Mus musculus with 8 samples.

Results

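The genes described here encode the last steps of carbohydrate digestion and sugar uptake in the small intestine. They were taken by name and number 10 of the 23951 gene symbols in the deposited table: the disaccharidase genes Sis, Mgam, Lct and Treh, the sodium-coupled transporter genes Slc5a1, Slc5a4a and Slc5a4b, the facilitated transporter genes Slc2a2 and Slc2a5, and Khk, which encodes a fructose kinase. Disaccharidases sit on the brush border of absorptive enterocytes, the cells that line the villi, and cut dietary sugars into glucose, galactose and fructose. Glucose and galactose then enter with sodium through SGLT1, the product of Slc5a1, fructose enters through GLUT5, the product of Slc2a5, and GLUT2, the product of Slc2a2, passes all 3 sugars on to the blood. These genes are known as marks of mature enterocytes and are low in the dividing cells of the crypt, and Cdx2 and Gata4 are known activators of the sucrase-isomaltase gene Sis.

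RNA came from crypts of mouse jejunum. All mice carried 1 conditional BRAF-V600E allele, an activated form of a MAPK pathway kinase, and Villin-CreER(T2), a recombinase driven by the villin promoter that tamoxifen activates in the intestinal epithelium. The group BRAF (BRAF-V600E f/+, 3 libraries) had no other floxed gene, SMAD4KO_BRAF (Smad4 f/f BRAF-V600E f/+, 3 libraries) also had both Smad4 alleles floxed, and CDX2KO_BRAF (Cdx2 f/f BRAF-V600E f/+, 2 libraries) had both Cdx2 alleles floxed. All were injected with tamoxifen on 4 consecutive days and taken 1 day later, and the crypts were freed with 3 mM EDTA and passed through a 70 micron filter. The study's uninjected control mice were not analysed here, and the ages of the mice are not given in the sources used here. Whether each library is a separate animal is not stated, so the p-values reflect only how far these libraries differ within a group. By Xist and Y-linked genes, BRAF and SMAD4KO_BRAF each hold libraries of both sexes and so more than 1 animal. Beyond that, the spread within a group may be technical.

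The values are FPKM, fragment counts scaled to transcript length and library depth, so levels can be compared between genes. Counts of reads are not part of the table, the absolute depth is unknown, and the relative depth read from the steps between low values ranged from 0.708 to 1.46 with BRAF library 0 at 1. Smad4 was at 42.4 to 47.0 FPKM in BRAF and 7.66 to 10.7 in SMAD4KO_BRAF. Cdx2 was at 64.2 to 82.6 in BRAF, 75.1 to 93.1 in SMAD4KO_BRAF and 121 and 155 in the libraries labelled CDX2KO_BRAF, so its level goes against that label. A whole-gene FPKM also counts reads from outside the floxed exons, so it does not check the deletion, and what is said of these 2 libraries depends on the label. Epithelial markers were high in each library, with Epcam at 540 to 992 FPKM. The summed FPKM of 8 T cell markers ranged from 26.2 to 685 in BRAF, 39.2 to 354 in SMAD4KO_BRAF and 8.87 to 49.2 in the labelled libraries. The summed FPKM of 8 gastric markers was 0.448 to 10.3 in BRAF, 0.233 to 2.62 in SMAD4KO_BRAF, and 2396 and 8094 in the labelled libraries. Of these gastric markers Tff1 is listed at 0 in all 8 libraries, while Gkn1, Gkn2, Tff2 and Cldn18 make up most of the sum. In RNA from pooled crypts, fewer cells of a type and less RNA per cell cannot be told apart.

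The sequences just upstream of 2 pairs of related genes are shown because each pair splits in the values below: Sis and Mgam, which encode related enzymes of starch and sucrose digestion, and Slc5a4a and Slc5a4b, neighbouring transporter genes. Each is the 250 bases before the annotated start, 5′ to 3′ on the gene's strand, from RefSeq on GRCm38.p6, a later build than the mm9 of the expression values. Capitals mark TTTAT, a core of the sequence that Cdx factors prefer, in either strand's letters. Sis lies on the minus strand at chr3:72967864-72968113, Mgam on the plus strand at chr6:40628581-40628830, Slc5a4a on the plus strand at chr10:76147201-76147450 and Slc5a4b on the minus strand at chr10:76111019-76111268.
Sis: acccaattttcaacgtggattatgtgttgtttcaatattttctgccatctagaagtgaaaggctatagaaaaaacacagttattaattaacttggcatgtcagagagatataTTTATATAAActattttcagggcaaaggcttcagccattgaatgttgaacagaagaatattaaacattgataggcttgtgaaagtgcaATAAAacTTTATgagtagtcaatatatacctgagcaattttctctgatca
Mgam: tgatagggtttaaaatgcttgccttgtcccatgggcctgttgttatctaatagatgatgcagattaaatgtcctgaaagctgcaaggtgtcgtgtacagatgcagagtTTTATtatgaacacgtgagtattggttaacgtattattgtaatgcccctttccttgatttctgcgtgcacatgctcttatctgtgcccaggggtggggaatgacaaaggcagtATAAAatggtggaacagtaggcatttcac
Slc5a4a: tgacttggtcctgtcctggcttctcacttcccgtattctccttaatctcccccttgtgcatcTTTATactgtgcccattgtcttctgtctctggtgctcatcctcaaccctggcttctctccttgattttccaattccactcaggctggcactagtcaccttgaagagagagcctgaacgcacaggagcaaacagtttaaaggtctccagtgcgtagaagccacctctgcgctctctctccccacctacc
Slc5a4b: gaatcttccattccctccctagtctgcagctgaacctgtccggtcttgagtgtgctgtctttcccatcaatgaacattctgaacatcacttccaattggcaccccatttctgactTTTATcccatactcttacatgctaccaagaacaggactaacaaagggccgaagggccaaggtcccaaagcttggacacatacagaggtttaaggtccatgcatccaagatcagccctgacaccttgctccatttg
The Sis window held 4 matches to TTTAT, in pairs that begin 138 and 133 and again 50 and 43 bases before the start. Mgam had 2 matches to TTTAT, and Slc5a4a and Slc5a4b had 1 each. Matches to TATAAA, the TATA box, contain a match to TTTAT by their letters, and the upstream pair in Sis and 1 match each in Mgam and Slc5a4a overlap one. Windows of all 10 genes were found in the table, and 5 of them, with Lct at 2 matches, held TTTAT on either strand, against 37.3% of 32851 windows of the same length. GTCTG, a core of the SMAD binding element, was found in 5 of the 10, with 4 matches in Slc2a5, 3 in Slc5a1 and 1 each in Lct, Slc2a2 and Slc5a4b, against 42.2% of windows. AGATAA, bound by Gata factors, was found in 2 of the 10, with 2 matches each in Lct and Mgam, against 9.99%. CAAAGT, a core of the HNF4 site, was found in Treh, at 2 places, and Slc2a2, at 1, against 12.6%. Treh, Khk, Slc5a1, Slc2a2 and Slc2a5 had no match to TTTAT. A match here is a run of letters and not a measured binding site, and any link between matches and the values below was not tested.

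In the libraries labelled CDX2KO_BRAF 9 of the 10 genes fell against BRAF at an adjusted p under 0.05. Here and below, a gene counted as fallen or risen passed this threshold. All 10 had negative differences, and the labelled levels of all 10 lay below the lowest BRAF library. Slc5a4a, 1 of the 9, reached an FPKM of 1 only in BRAF and entered the test through that group. Sis, Lct, Treh, Slc5a4a and Slc5a4b dropped to between 0.292% and 1.65% of the BRAF mean, while Mgam, Khk, Slc5a1, Slc2a2 and Slc2a5 stood at 5.57% to 26.6%. Of all 12084 genes tested 7.21% fell in this comparison, while 5733 had a negative difference. For 22.7% both labelled libraries lay below all of BRAF. The median difference of log2(FPKM + 1) was -3.46 over the 10 genes and 0.023 over all tested genes. Differences below are on this scale with their standard errors from limma, and p-values are adjusted over all tested genes. The scale understates changes of genes near or below an FPKM of 1.

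In SMAD4KO_BRAF all 10 genes had negative differences from BRAF, with a median of -1.30 against -0.013 over all tested genes. By the adjusted p 1 of the 10 was called, Slc5a4a, where 0.0497% of all tested genes were called lower. Slc5a4a entered the test only through BRAF, where it is high, and its call was lost in 11 of 20 alternatives, among them no filter on low values (adjusted p = 0.0742). All 10 had an unadjusted p under 0.05, as did 9.05% of tested genes in the lower direction, and for 6 of the 10 every SMAD4KO_BRAF library lay below every BRAF library, against 10.4% of tested genes. The 6 are Sis, Treh, Khk, Slc5a1, Slc5a4a and Slc5a4b. Against SMAD4KO_BRAF the libraries labelled CDX2KO_BRAF were lower again: 7 of the 10 fell, where 5.01% of tested genes fell, and the groups did not overlap for 9, against 22.2%. The count of 7 dropped to 4 without CDX2KO_BRAF library 0 and to 2 without library 1. The 3 that did not pass were Slc5a1, Slc5a4a and Slc2a2. Slc5a4a was below an FPKM of 1 in every library of both groups, where the scale leaves little room for a difference. All 3 comparisons share libraries, so their values are given side by side and not as independent evidence.

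**Figure D1:**
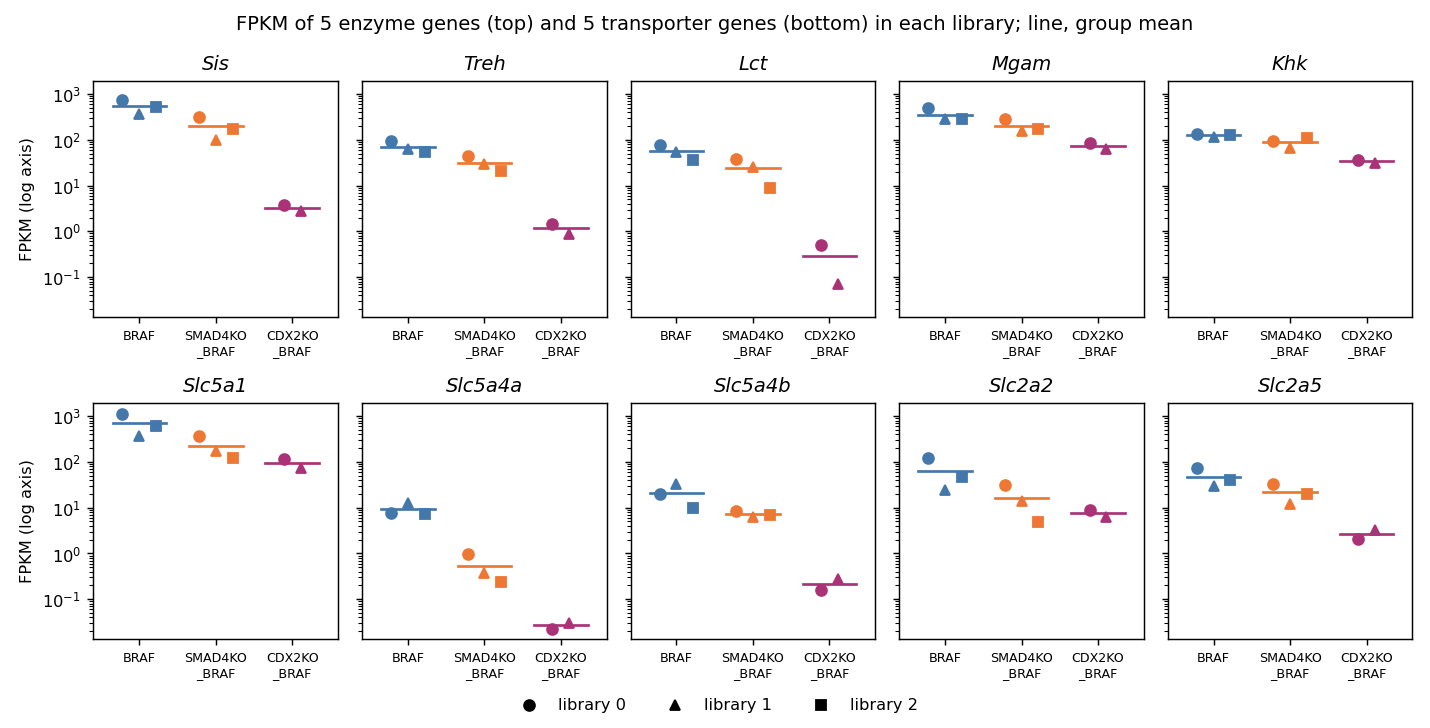
FPKM on a log axis for the 5 enzyme genes (top) and 5 transporter genes (bottom), with 1 point per library, shaped by its column number, with group means drawn as lines. Sis lies at 368 to 755 in BRAF and at 2.85 and 3.71 in the libraries labelled CDX2KO_BRAF, while Mgam lies at 281 to 499 and at 63.5 and 84.2.

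Among the disaccharidases, sucrase-isomaltase splits sucrose and the branch points of starch. Its gene Sis was at 755, 368 and 508 FPKM in BRAF libraries 0, 1 and 2, at 320, 96.9 and 173 in SMAD4KO_BRAF and at 3.71 and 2.85 in the libraries labelled CDX2KO_BRAF. The 3 groups did not overlap, and the highest labelled library was 99.2-fold below the lowest BRAF library. The mean fell 166-fold from BRAF to the labelled libraries (log2 difference -6.94 ± 0.49, adjusted p = 0.000482) and 60.1-fold from SMAD4KO_BRAF to them (-5.37 ± 0.49, adjusted p = 0.00139). Between SMAD4KO_BRAF and BRAF the difference was -1.56 ± 0.44, which did not pass (adjusted p = 0.235). By rank, Sis was between the 103rd and 152nd most abundant symbol in BRAF and between the 9196th and 9811th in the labelled libraries.

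Maltase-glucoamylase, which releases glucose from the ends of starch chains, is the related enzyme made from Mgam. That gene was at 499, 281 and 290 FPKM in BRAF, 283, 158 and 170 in SMAD4KO_BRAF and 84.2 and 63.5 in the labelled libraries. BRAF and SMAD4KO_BRAF overlapped narrowly, and both labelled libraries lay below the other 6. The fall against BRAF was 4.83-fold in the mean (-2.22 ± 0.34, adjusted p = 0.00746), and it did not pass without CDX2KO_BRAF library 1 (adjusted p = 0.0753). Against SMAD4KO_BRAF Mgam also fell (-1.41 ± 0.34, adjusted p = 0.0412), a call that ended in 7 of 20 alternatives. SMAD4KO_BRAF itself differed from BRAF by -0.80 ± 0.31, which did not pass (adjusted p = 0.301).

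Relative to Mgam, the level of Sis was 1.51, 1.31 and 1.75 in BRAF, 1.13, 0.614 and 1.02 in SMAD4KO_BRAF and 0.0440 and 0.0449 in the labelled libraries. The groups did not overlap in this ratio, which was chosen after its values were seen. An exact two-sided permutation test of 3 against 3 libraries cannot go below p = 0.1 and one of 3 against 2 cannot go below p = 0.2, and both comparisons with BRAF stood at those smallest values (adjusted p = 0.343 over 12 ratio tests). No window of 50 bases, the read length, is shared by the GENCODE transcripts of Sis and Mgam, so reads of one would not match the other without mismatches.

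Lactase, the enzyme of milk sugar, is encoded by Lct. Its FPKM was 76.4, 55.3 and 35.6 in BRAF, 37.5, 25.1 and 8.93 in SMAD4KO_BRAF and 0.494 and 0.0721 in the labelled libraries. The labelled libraries were apart from all others but differed from each other 6.85-fold, the widest spread within a group among the 10 genes. Lct fell against BRAF (-5.42 ± 0.57, adjusted p = 0.00181) and against SMAD4KO_BRAF (-4.09 ± 0.57, adjusted p = 0.00639), the latter not passing without CDX2KO_BRAF library 1 (adjusted p = 0.0667). SMAD4KO_BRAF overlapped BRAF, at -1.33 ± 0.51 (adjusted p = 0.301).

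Trehalase, which splits the sugar of mushrooms and insects, is made from Treh. The gene was at 92.3, 63.9 and 54.6 FPKM in BRAF, 44.7, 29.7 and 20.5 in SMAD4KO_BRAF and 1.43 and 0.895 in the labelled libraries. All 3 groups stood apart. Treh fell 60.5-fold in the mean against BRAF (-5.02 ± 0.34, adjusted p = 0.000477) and 27.2-fold against SMAD4KO_BRAF (-3.86 ± 0.34, adjusted p = 0.00124), and both calls held in all 20 alternatives. For SMAD4KO_BRAF against BRAF the difference was -1.16 ± 0.30 (adjusted p = 0.215).

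**Figure D2:**
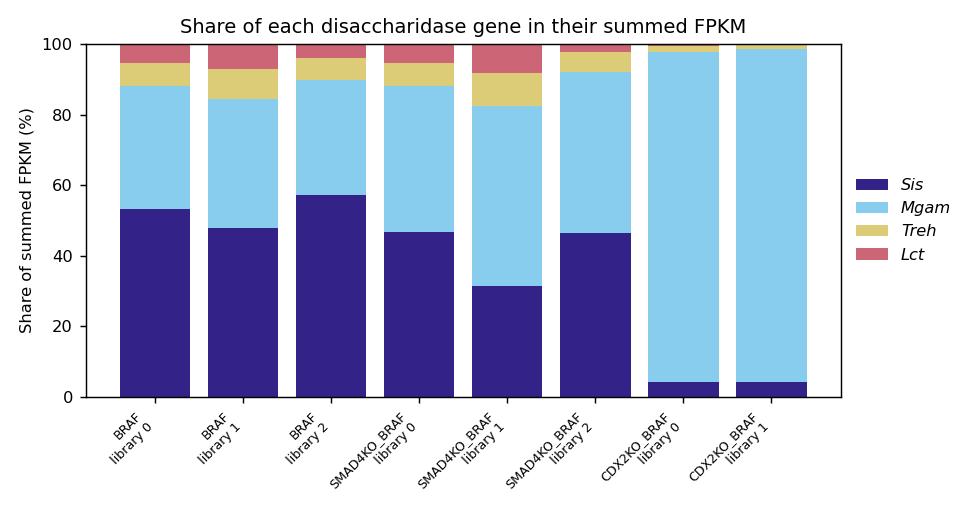
Share in percent of the summed FPKM of the 4 disaccharidase genes taken by each gene, with 1 bar per library. Mgam takes 32.6% to 51.0% in BRAF and SMAD4KO_BRAF and 93.7% and 94.3% in the libraries labelled CDX2KO_BRAF, where Sis takes 4.13% and 4.23%.

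The summed FPKM of the 4 disaccharidase genes was 768 to 1422 in BRAF, 310 to 686 in SMAD4KO_BRAF and 67.3 and 89.8 in the labelled libraries. Its makeup differed too. Sis took 47.9% to 57.2% of the sum in BRAF, 31.3% to 46.7% in SMAD4KO_BRAF and 4.13% and 4.23% in the labelled libraries, where Mgam was nearly all that was left.

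Of the sodium-coupled transporters, SGLT1 carries glucose and galactose. Its gene Slc5a1 was the most abundant of the 10 by group mean in every group, at 1121, 368 and 615 FPKM in BRAF, 367, 170 and 121 in SMAD4KO_BRAF and 117 and 73.5 in the labelled libraries. The groups did not overlap, although the lowest BRAF library exceeded the highest SMAD4KO_BRAF library by a factor of 1.003. Slc5a1 fell 7.37-fold in the mean against BRAF (-2.76 ± 0.58, adjusted p = 0.0228). That call ended without BRAF library 2 (adjusted p = 0.0621), CDX2KO_BRAF library 0 (0.0811) or CDX2KO_BRAF library 1 (0.154). The differences of SMAD4KO_BRAF from BRAF (-1.68 ± 0.52, adjusted p = 0.260) and of the labelled libraries from SMAD4KO_BRAF (-1.07 ± 0.58, adjusted p = 0.273) did not pass.

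Slc5a4a and Slc5a4b encode proteins of the SGLT3 type, which bind glucose and are known as sensors or weak carriers more than as routes of uptake. Slc5a4a was at 7.49, 12.7 and 7.22 FPKM in BRAF, 0.959, 0.381 and 0.242 in SMAD4KO_BRAF and 0.0227 and 0.0307 in the labelled libraries. It is the one gene of the 10 that reached an FPKM of 1 only in BRAF, so it entered the test through the group where it was high. It fell 17.4-fold in the mean in SMAD4KO_BRAF (-2.72 ± 0.26, adjusted p = 0.0204), and every SMAD4KO_BRAF library was at least 7.53-fold below every BRAF library. That call passed in 9 of 20 alternatives, with adjusted p from 0.00316 to 0.152, and ended without BRAF library 0 (0.0809), SMAD4KO_BRAF library 1 (0.152), SMAD4KO_BRAF library 2 (0.103) or either labelled library (0.0590 and 0.0576). With a pseudocount of 0.1 the difference was -4.00, which also missed the threshold (0.0803). In the labelled libraries Slc5a4a fell against BRAF (-3.26 ± 0.29, adjusted p = 0.00101). Against SMAD4KO_BRAF its difference did not pass (-0.54 ± 0.29, adjusted p = 0.264), while its mean was 19.7-fold lower and the groups did not overlap. Over the 19 alternatives that tested it, this difference ranged from -2.14 to -0.34 and passed in 1 (adjusted p = 0.0431). Both groups lay below an FPKM of 1, where the scale leaves little room for a difference, so the missing call does not show equal levels. Multiplied by relative depth, its 2 labelled values were 0.0293 and 0.0292, equal steps that stand for the same small number of reads, so the ratio of means to BRAF, 342, is imprecise.

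Slc5a4b was at 19.8, 32.5 and 10.1 FPKM in BRAF, 8.35, 6.41 and 6.98 in SMAD4KO_BRAF and 0.159 and 0.277 in the labelled libraries. The 3 groups were apart. It fell against BRAF (-4.02 ± 0.41, adjusted p = 0.00159) and against SMAD4KO_BRAF (-2.75 ± 0.41, adjusted p = 0.00799) in the labelled libraries, the latter not without CDX2KO_BRAF library 0 (0.0618) or library 1 (0.0662). In SMAD4KO_BRAF its difference from BRAF was -1.27 ± 0.36 (adjusted p = 0.238), with a mean 2.87-fold lower.

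The level of Slc5a4a relative to Slc5a4b was 0.378, 0.392 and 0.718 in BRAF, 0.115, 0.0595 and 0.0346 in SMAD4KO_BRAF and 0.143 and 0.111 in the labelled libraries. Both other groups lay below BRAF in this ratio, also chosen after its values were seen. The exact permutation test stood at its smallest value of 0.1 for SMAD4KO_BRAF and 0.2 for the labelled libraries (adjusted p = 0.343 over 12 ratio tests). The labelled ratios divide values below an FPKM of 0.5, where few reads limit the precision. The GENCODE transcripts of the pair share 1 window of 50 bases, of 2006 in Slc5a4a and 3150 in Slc5a4b. Slc5a1 shares none with either.

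Of the facilitated transporters, GLUT2 is the route by which sugars leave the enterocyte. Slc2a2 was at 121, 24.0 and 46.1 FPKM in BRAF, 30.9, 14.2 and 4.99 in SMAD4KO_BRAF and 8.95 and 6.36 in the labelled libraries. BRAF libraries differed 5.02-fold and SMAD4KO_BRAF libraries 6.19-fold, and these 2 groups overlapped. No comparison passed for Slc2a2: the differences were -1.88 ± 0.73 for SMAD4KO_BRAF against BRAF (adjusted p = 0.305), -2.61 ± 0.81 for the labelled libraries against BRAF (0.0776) and -0.74 ± 0.81 against SMAD4KO_BRAF (0.587). The second passed with library weights (0.0303), with sex in the model (0.0348) and with a block for the column number (0.0345). The ratio of Slc5a1 to Slc2a2 stayed within 9.29 to 24.2 over all 8 libraries, with geometric means of 12.4, 15.1 and 12.3 in BRAF, SMAD4KO_BRAF and the labelled libraries (exact permutation p = 0.6 to 1).

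GLUT5 is the fructose transporter of the brush border. Its gene Slc2a5 was at 72.9, 29.9 and 40.3 FPKM in BRAF, 32.6, 12.3 and 20.2 in SMAD4KO_BRAF and 2.12 and 3.19 in the labelled libraries. The labelled libraries lay below the other 6, and the other 2 groups overlapped. Slc2a5 fell 18.0-fold in the mean against BRAF (-3.65 ± 0.46, adjusted p = 0.00366) and 8.15-fold against SMAD4KO_BRAF (-2.55 ± 0.46, adjusted p = 0.0157), the latter not without CDX2KO_BRAF library 0 (0.112) or library 1 (0.0876). SMAD4KO_BRAF differed from BRAF by -1.11 ± 0.41 (adjusted p = 0.295).

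Ketohexokinase, the product of Khk, phosphorylates fructose once it is inside the cell. Khk varied least within BRAF, at 132, 118 and 130 FPKM, and was at 92.9, 67.8 and 108 in SMAD4KO_BRAF and 35.4 and 31.9 in the labelled libraries. The groups did not overlap. It fell 3.76-fold in the mean against BRAF (-1.88 ± 0.19, adjusted p = 0.00174) and 2.66-fold against SMAD4KO_BRAF (-1.36 ± 0.19, adjusted p = 0.00685), the latter not without CDX2KO_BRAF library 1 (0.0720). Its difference in SMAD4KO_BRAF was the smallest of the 10, at -0.52 ± 0.17 (adjusted p = 0.279). Per unit of Slc2a5, Khk stood at 1.81 to 3.94 in BRAF, 2.85 to 5.53 in SMAD4KO_BRAF and 16.6 and 9.98 in the labelled libraries.

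**Figure D3:**
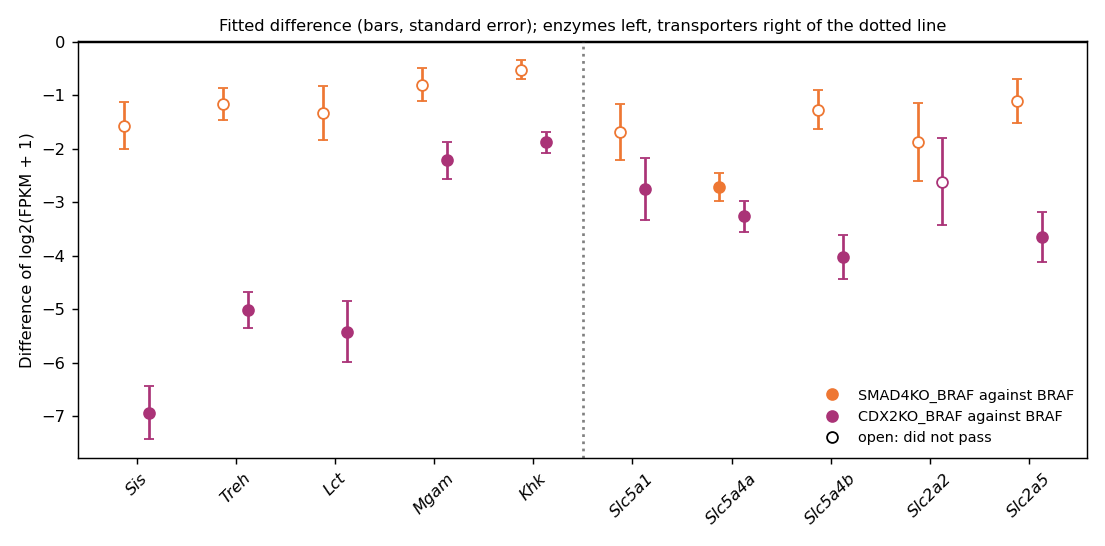
Fitted difference of log2(FPKM + 1) from BRAF for each gene, with its standard error as a bar, filled where the adjusted p passed and open where it did not. Every point lies below 0. Sis is lowest among the labelled libraries at -6.94, and Slc5a4a is the one filled point of SMAD4KO_BRAF, at -2.72.

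Enzymes and transporters were set against each other by counts and medians. In the labelled libraries all 5 enzyme genes and the transporter genes Slc5a1, Slc5a4b and Slc2a5 fell against BRAF, beside 7.21% of all tested genes. Slc5a4a also passed but is not counted, because it entered the test only through BRAF. The medians of the 5 enzymes and 5 transporters, Slc5a4a included, were -5.02 and -3.26. The transporter median of -3.26 is the value of Slc5a4a. With a pseudocount of 0.1 Slc5a4a was at -6.14, and the middle transporter value was -4.04, for Slc2a5. The middle enzyme value was then -5.80, for Treh. On the log2(FPKM + 1) scale both kinds spanned a range. Enzymes ran from -6.94 for Sis to -1.88 for Khk, and transporters from -4.02 for Slc5a4b to -2.61 for Slc2a2. In SMAD4KO_BRAF the order was the other way, with medians of -1.16 for the enzymes and -1.68 for the transporters. The single call there, Slc5a4a, is not counted because its entry into the test rests on BRAF. Its value of -2.72 is nevertheless part of the transporter median of -1.68. Against SMAD4KO_BRAF the labelled libraries were lower by the test in all 5 enzyme genes and in 2 of 5 transporter genes. Of all tested genes 5.01% fell in this comparison, and the medians of the enzymes and transporters were -3.86 and -1.07. Slc5a4a, which did not pass, was below an FPKM of 1 in both groups, so its difference of -0.54 was held small by the scale. The difference between the enzymes and the transporters was not tested, since the 10 genes were not drawn as a sample of either kind.

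Other genes of sugar handling had smaller medians. Of 10 further sugar transporter genes tested, out of 17 listed, 5 fell in the labelled libraries against BRAF and none rose, where 7.21% of all tested genes fell and 6.89% rose, with a median of -0.68, and none passed in SMAD4KO_BRAF, with a median of -0.47. Those that fell include Slc5a11, which encodes an inositol and glucose carrier, from 13.4 ± 3.41 FPKM (SD, n = 3) to 0.516 ± 0.236 (n = 2; adjusted p = 0.000774), and Slc2a7, a relative of Slc2a5, from 10.2 ± 1.80 to 0.569 ± 0.257 (adjusted p = 0.00114). The others are Slc5a9 (-1.02), Slc2a9 (-1.21) and Slc37a4 (-0.70), which carries glucose 6-phosphate into the endoplasmic reticulum. In SMAD4KO_BRAF Slc2a7 was at 2.17 ± 0.902 (adjusted p = 0.0898) and Slc5a11 at 4.55 ± 1.31 (0.139).

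Of 15 enzymes that handle fructose, galactose and glucose inside the cell, 4 fell and 1 rose in the labelled libraries against BRAF, beside the same 7.21% and 6.89%, with a median of -0.22. Dak, which encodes the triose kinase that follows ketohexokinase and aldolase, fell from 187 ± 59.1 FPKM to 41.6 ± 12.0 (-2.12 ± 0.31, adjusted p = 0.00564). Pck1, which encodes the first enzyme specific to gluconeogenesis, fell from 59.2 ± 36.7 to 2.34 ± 1.39 (adjusted p = 0.0170). The galactose genes Galm and Galt fell by 0.93 and 0.70, and the hexokinase gene Hk2 rose from 29.2 ± 7.23 to 58.3 ± 6.77 (adjusted p = 0.0430). No gene of this list passed between SMAD4KO_BRAF and BRAF, where the median was -0.49. Against SMAD4KO_BRAF the labelled libraries were lower by the test in Dak, Pck1 and Fbp1 (-2.16) and higher in Ugp2 (0.59; 6.6% of all tested genes rose in this comparison), which encodes the enzyme that makes UDP-glucose.

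Of 16 genes of known or proposed regulators of these genes, 4 fell and 2 rose in the labelled libraries against BRAF, beside 7.21% and 6.89% of all tested genes, and none passed in SMAD4KO_BRAF. Isx, an intestinal homeobox gene at 72.1 ± 7.94 FPKM in BRAF, fell by 4.51 (adjusted p = 8.69e-06), and Hnf4g and Hnf4a, which encode nuclear receptors of enterocytes, fell by 2.84 (adjusted p = 0.000359) and 0.91 (adjusted p = 0.00915). Mlxipl, which encodes the glucose-responsive factor ChREBP, was at 43.4 ± 6.34 FPKM in BRAF, 43.3 ± 10.1 in SMAD4KO_BRAF and 9.57 ± 0.153 in the labelled libraries (-2.06 ± 0.21, adjusted p = 0.00173, against BRAF). Cdx2 and Klf4 rose in them, Cdx2 by 0.86 (adjusted p = 0.0213).

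Brush border genes outside sugar handling were lower as well. Of 22 such genes, among them peptidases, lipid carriers and microvillus genes, 15 fell in the labelled libraries, beside 7.21% of all tested genes, with a median of -1.84, against a median of -3.46 for the sugar genes. None of the 22 passed in SMAD4KO_BRAF by the adjusted p of limma, while 15 were lower at an unadjusted p under 0.05, beside 9.05% of all tested genes. All 22 were negative in it, as were 6259 of the 12084 tested genes, and their median was -0.97 against -1.30 for the sugar genes. The peptidase gene Enpep fell from 218 ± 25.5 FPKM to 10.6 ± 6.65 (adjusted p = 0.00102) and the adhesion gene Tmigd1 from 44.1 ± 16.0 to 0.217 ± 0.0157 (adjusted p = 0.00103). Anpep, another peptidase gene, fell less, from 1315 ± 415 to 455 ± 249 (adjusted p = 0.0451), and Vil1, which encodes the microvillus protein villin and shares its promoter with the recombinase, fell from 697 ± 143 to 363 ± 23.6 (adjusted p = 0.0494). These medians describe the lists, and a difference between them was not tested.

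**Figure D4:**
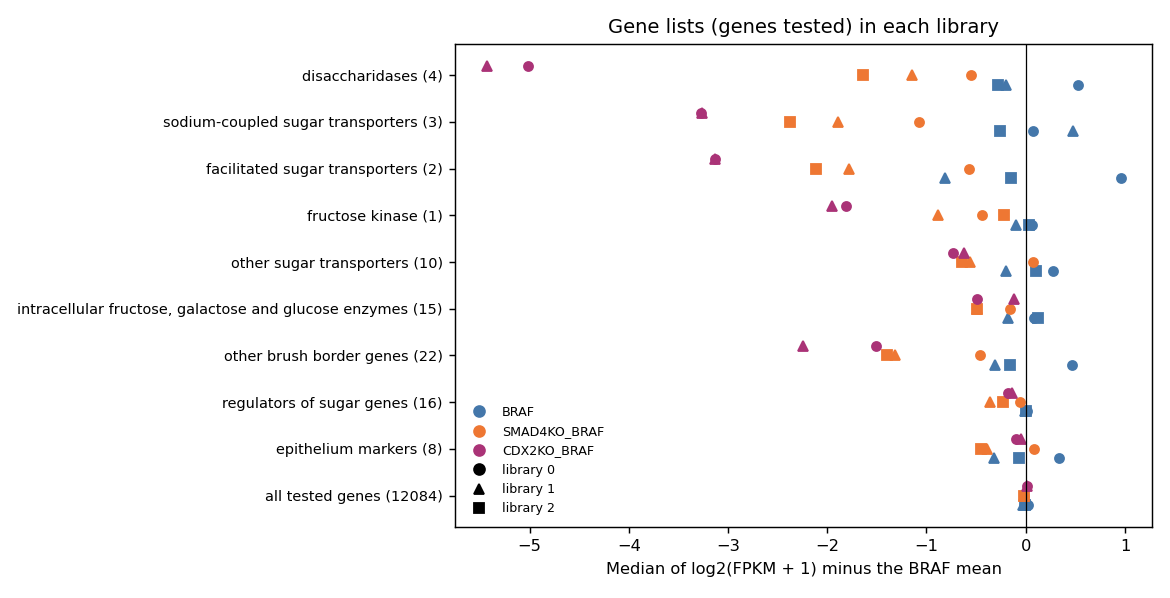
Median over the tested genes of each list of log2(FPKM + 1) minus the BRAF mean, with 1 point per library, coloured by group and shaped by column number. The disaccharidases lie at -5.01 and -5.43 in the libraries labelled CDX2KO_BRAF, the other brush border genes at -1.50 and -2.24, and all tested genes near 0.

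Within groups, 1 library was usually the highest. BRAF library 0 had the highest BRAF value for 8 of the 10 genes, and SMAD4KO_BRAF library 0 the highest of its group for 9. By Xist and Y-linked genes these are the 2 libraries from male mice, and the other 6 are from female mice. Those 2 libraries also had the lowest summed T cell markers of their groups, 26.2 and 39.2 FPKM, and the highest medians of other brush border genes, 0.47 and -0.47 relative to the BRAF mean. The part of sex or of cell makeup in these values was not tested. Khk was the exception in SMAD4KO_BRAF, at 108 in library 2 against 92.9 in library 0. In BRAF the exceptions were Slc5a4a and Slc5a4b, both highest in library 1, the library with the most T cell marker signal at 685 FPKM. The ileal bile acid binding gene Fabp6 was at 1083 FPKM in that library against 71.7 and 226 in BRAF libraries 0 and 2. In female libraries alone 9 of the 10 genes fell in the labelled libraries against BRAF. In this fit 1351 of 11895 tested genes passed in that comparison, in either direction. Against SMAD4KO_BRAF 7 of the 10 fell, where 5.01% of tested genes fell in the fit of all 8 libraries. None of the 10 passed between SMAD4KO_BRAF and BRAF, where 16 of the 11895 did. There Slc5a4a was at -3.02 (adjusted p = 0.0616) and the median of the 10 was -1.41. Between the 2 male libraries alone, Sis was at 755 in BRAF and 320 in SMAD4KO_BRAF, and Slc5a4a at 7.49 and 0.959.

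Markers of some other cell types differed in the labelled libraries. Among tuft cell markers, Dclk1 was at 3.84 and 11.6 FPKM in them and 0.417 to 2.22 in the other 6, and Trpm5 at 6.95 and 15.2 against 0.643 to 3.45. Gnat3, at 3.57 and 3.79, was at most 0.197 elsewhere, and the gastric marker Cldn18, at 86.7 and 248, at most 0.731, so both passed the filter through the labelled libraries and their calls are not counted here. Against BRAF, where 7.21% of all tested genes fell and 6.89% rose, 3 of 8 tested Paneth cell markers fell, 1 of 8 enteroendocrine markers fell, 1 of 8 goblet cell markers rose and 2 of 10 cell cycle genes rose, and none of 8 stem cell, 8 T cell and 5 mesenchyme markers passed, with medians of 0.23, -1.88 and -1.52. Ileal markers fell in 3 of 4. Of 6 markers of the proximal gut 2 rose, Pdx1 among them, and Gata4 was at 39.7 to 58.8 FPKM over all 8 libraries. Among 8 epithelial markers Vil1 and Cdh17 fell, while Epcam was at -0.62 ± 0.23 (adjusted p = 0.124). Of 9 pancreatic acinar genes 1, Cela1, was tested and rose from 13.7 ± 2.62 to 26.8 ± 2.31 FPKM, while the defining genes Amy2b, Amy2a5, Cpa1 and Cpb1 are listed at 0 in every library. Between SMAD4KO_BRAF and BRAF no marker of any of these lists passed, but some lists had positive medians. Relative to the BRAF mean, the median of the Paneth cell markers was 1.10, 1.13 and 0.32 in SMAD4KO_BRAF libraries 0, 1 and 2 and -0.17, -0.42 and 0.52 in BRAF. That of the stem cell markers was 0.10, 0.69 and 0.74 against -0.16, 0.22 and -0.07. At an unadjusted p under 0.05, 3 of these 8 markers were higher, beside 734 of the 12084 tested genes. Among the stem cell markers Lgr5 differed by 1.38 ± 0.18 (adjusted p = 0.0901) and Smoc2 by 1.18 ± 0.26 (adjusted p = 0.179). The part of other cell types in the sugar gene values was not tested.

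Over the 8 libraries, the pattern of the 10 genes on the log2 scale was shared to differing degrees. Pearson's r between pairs of them ranged from 0.65 for Slc2a2 and Khk to 0.99 for Treh and Lct, a description over libraries that share groups. Among 8381 named genes with a mean FPKM of at least 5, the 5 most like Sis were Dpep1, Smlr1, Ush1c, Ttc4 and Chp2 (r = 0.992 to 0.995). The 5 most like Slc5a4a, whose SMAD4KO_BRAF and labelled values are both low, were Tssc1, Lap3, Npc1l1, Dnpep and Sfxn1 (r = 0.950 to 0.979). Sec23a, Slc7a7, Gpd1 and Agmo were among the 5 most like Slc5a1 (r = 0.984 to 0.989), and Slc2a2 was most like Rhof, Ppap2a, Cdhr2, Gpd1 and Creb3l2 (r = 0.980 to 0.991). Gpd1 stands in 2 of these sets. Dpep1, a brush border dipeptidase gene, was at 115 to 183 FPKM in BRAF, 33.3 to 63.7 in SMAD4KO_BRAF and 0.213 and 0.243 in the labelled libraries. Its 3 groups did not overlap, but it was picked for its likeness to Sis, so this is not separate evidence.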

How the data were processed

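RNA of mouse jejunal crypts was measured in 8 libraries. The authors deposited 1 table of FPKM for 23951 symbols. Reads were single-end, 50 bp, from TruSeq libraries, per the labels' protocols. The submitters' processing notes name the build mm9 and the tools Cuffdiff 2.2.1, Cuffnorm 2.2.1 and TopHat2 2.1.0, without saying from which of them the table came. Columns are numbered from 0 and titles from 1, so a column is tied to a group, not to 1 sample, and keeps its own number here. A further 3 columns, headed Control, correspond to none of the samples and stayed out.

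Genes reaching an FPKM of 1 in 2 or more of the 8 libraries were kept (12084, all 10 sugar genes among them), and log2(FPKM + 1) was fitted in 1 model of 3 groups with limma 3.58.1 (R 4.3.3) and a mean-variance trend. P-values are two-sided, adjusted by Benjamini-Hochberg over all tested genes per comparison, with a threshold of 0.05. The fit was tested on simulated data. The genes, lists and alternatives were chosen with earlier results of these data known. All 10 genes and the targeted Smad4 and Cdx2 are named, and of each other list those called in any comparison or with the 3 smallest adjusted p-values were open to naming. Likeness is Pearson's r over the 8 libraries. Some genes that the rule names are not reported here. The alternatives changed the pseudocount to 0.1, dropped the filter or raised it to an FPKM of 5, rescaled by median ratios or by quantile normalization, fitted each pair of groups alone, left out the trend, and used robust estimation, weights per library, sex in the model, a block for the column number, leaving out each library and, added after seeing the data, female libraries only. Counts of reads are not in the table, so precision is judged from how libraries of a group differ. Tables used Python 3.11.15, pandas 2.3.3, scipy 1.17.1 and matplotlib 3.10.9.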

Additional observations from a re-analysis of the deposited data

How the results depend on the processing

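No difference of any of the 10 genes changed sign in any alternative, and the median over all tested genes stayed between -0.042 and 0.069. For SMAD4KO_BRAF against BRAF the count of genes that passed, 1 of 10, became 0 with a pseudocount of 0.1, without a filter, with a minimum FPKM of 5, with only the 2 groups compared, with a replicate block for the column number and in female libraries alone, and 5 with library weights (Sis, Treh, Slc5a1, Slc2a2 and Slc5a4a, with 1069 genes passing in all). Leaving out 1 library gave 0 to 1. For the labelled libraries against BRAF the count of 9 was 7 to 9 leaving out 1 library and 9 or 10 otherwise. Against SMAD4KO_BRAF the count of 7 was 2 to 7 leaving out 1 library, with 4 without CDX2KO_BRAF library 0 and 2 without library 1, and 6 to 8 otherwise. The cause of these moves was not tested. With a replicate block the counts were 0, 10 and 7. Column numbers did not pair the libraries: deviations of same-numbered BRAF and SMAD4KO_BRAF libraries correlated at 0.24, -0.047 and 0.0035. With only these 2 groups fitted, Slc5a4a was below the filter for the labelled libraries against SMAD4KO_BRAF. Slc5a4a, Slc5a4b and Lct in the labelled libraries are below an FPKM of 0.5, where few reads limit the precision.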
